A study of Mus musculus with 30 samples.

Results

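Mstn and Mettl21c, 2 genes known mainly from skeletal muscle, were followed over 15 tissues of adult male C57BL/6 mice. They were chosen by symbol, Mstn and A530098C11Rik, the older name of Mettl21c, through lists that pair symbols with the probes of the array. Each symbol had 1 probe, so the pair made up 2 of the 21026 probes tested and of the 25030 in the authors' value table. Both genes had been picked because they were high in skeletal muscle against the other tissues, and lower in heart than in muscle. Their rank in skeletal muscle, and the values in muscle and heart, are therefore given here without a test. The tissues were muscle, bone, skin and fat, the heart, lung, liver, kidney and bladder, stomach with small and large intestine, and eyes, brain cortex and cerebellum, each with 2 arrays, from mice whose age the labels give as 28 weeks. The study used these arrays to relate how tissue-specific a gene is to how readily it responds to transcription factors in embryonic stem cells. On every array the tissue RNA carried the dye Cy3, and a common reference, a pool of RNA from cultured mouse cell lines (myoblasts among them) mixed with RNA of embryonic stem cells, carried Cy5. A level below is log2 of Cy3 over Cy5, so that 1 unit is a doubling relative to the reference.

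Mstn encodes myostatin, a secreted ligand of the TGF-beta family that muscle fibres release and that limits muscle growth. It binds the activin type II receptors, which recruit type I receptors and signal through Smad proteins, and animals that lack it grow enlarged muscles. Mettl21c encodes a methyltransferase that modifies lysine residues of other proteins and belongs to the METTL21 family. No measurement on these arrays bears on regulation.

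The values rest on 1 oligonucleotide of 60 bases per gene, of which the opening 30 bases are shown so that each measurement can be tied to its target. The Mstn probe has a GC content of 35% and the Mettl21c probe one of 43.3%, and the files list both as unmapped, without a coordinate.
Mstn probe: tcacaaaaaaggtgactgcttctatttcag
Mettl21c probe: gtgtcttgtgaagatattcgaaggtgcacc
The Mstn promoter is shown because muscle genes are known to be switched on through E-boxes, the letters CANNTG to which MyoD and myogenin bind. The 250 bases before its start in RefSeq (build GRCm38.p6, plus strand, chr1:53061390-53061639) are printed with the E-box letters in capitals.
Mstn promoter: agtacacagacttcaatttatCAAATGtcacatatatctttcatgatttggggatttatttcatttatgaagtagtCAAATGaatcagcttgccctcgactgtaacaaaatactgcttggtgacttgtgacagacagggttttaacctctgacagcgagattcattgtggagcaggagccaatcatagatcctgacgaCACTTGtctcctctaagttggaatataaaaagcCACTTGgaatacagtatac
It held 4 matches to CANNTG, beginning 229, 174, 52 and 19 bases before the start. At least 1 match stood in 66.2% of the 32851 promoter windows of this length, whose median was 1. The letters TATAAA, searched on both strands, stood once, 29 bases before the start, and were found in 12.4% of windows. The MEF2 pattern, searched on both strands as well, had no match here and one in 0.508% of windows. A match is a description of letters, not of a bound site.

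Mstn was highest in skeletal muscle, at 7.23 and 7.98 on the 2 arrays (mean 7.60 ± 0.53, SD, n = 2). Skin gave 2.92 and 6.62, a mean of 4.77 ± 2.61 (SD, n = 2). Bone gave 4.64 and 3.33, a mean of 3.99 ± 0.92 (SD, n = 2). The skin arrays lay on either side of both bone arrays, so skin and bone overlapped and have no order for Mstn. Eyes gave 2.38 and 2.49, below every muscle, skin and bone array. Bladder gave 1.93 on its array 1 and 0.53 on its array 2. The array 2 value fell among those of the remaining tissues, while the array 1 value lay above all of them.

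The other 10 tissues, heart among them, held Mstn between -0.15 and 0.76 on 20 arrays. On 15 of those arrays the Cy3 spot was not well above background, and neighbours in the order of these tissues mostly overlapped. In 6 tissues neither Cy3 spot passed that mark, so only a lower bound of the fold can be given, against the spot's own Cy3 or the lowest Cy3 that did pass, whichever was higher. With Cy3 alone quantile-normalized between arrays, muscle stood at least 55.7-fold above heart, 70.0-fold above lung, 72.0-fold above liver, 64.9-fold above large intestine, 62.4-fold above fat and 69.1-fold above small intestine. These bounds, on a scale added after seeing the data, use Cy3 alone, the dye of every tissue.

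Mettl21c was also highest in skeletal muscle, at 7.73 and 8.00 (mean 7.87 ± 0.19, SD, n = 2). Bone followed with 6.03 and 5.03, a mean of 5.53 ± 0.71 (SD, n = 2). Skin gave 2.85 and 4.31, a mean of 3.58 ± 1.04 (SD, n = 2), and eyes gave 2.45 and 2.54. The arrays of muscle, bone, skin and eyes did not overlap for this gene, in that order, whereas skin and bone did for Mstn. With loess values the 2 muscle arrays lay above every other array for both genes, as they did for 6.35% of all probes tested. Both arrays of skin lay above all 22 arrays of the tissues other than muscle, bone, skin and eyes (4.3% of all probes), as did both of bone (3.37%) and of eyes (5.38%). Bladder gave 0.75 and -0.24, and its array 2 again lay among the rest. The other 10 tissues held Mettl21c between -0.30 and 0.22, with the Cy3 spot not well above background on 15 of 20 arrays. Heart gave 0.14 and -0.12. The lower bounds of the fold between muscle and the tissues without a Cy3 spot above background ran from at least 205-fold for stomach to at least 231-fold for liver with Cy3 quantile-normalized.

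**Figure D1:**
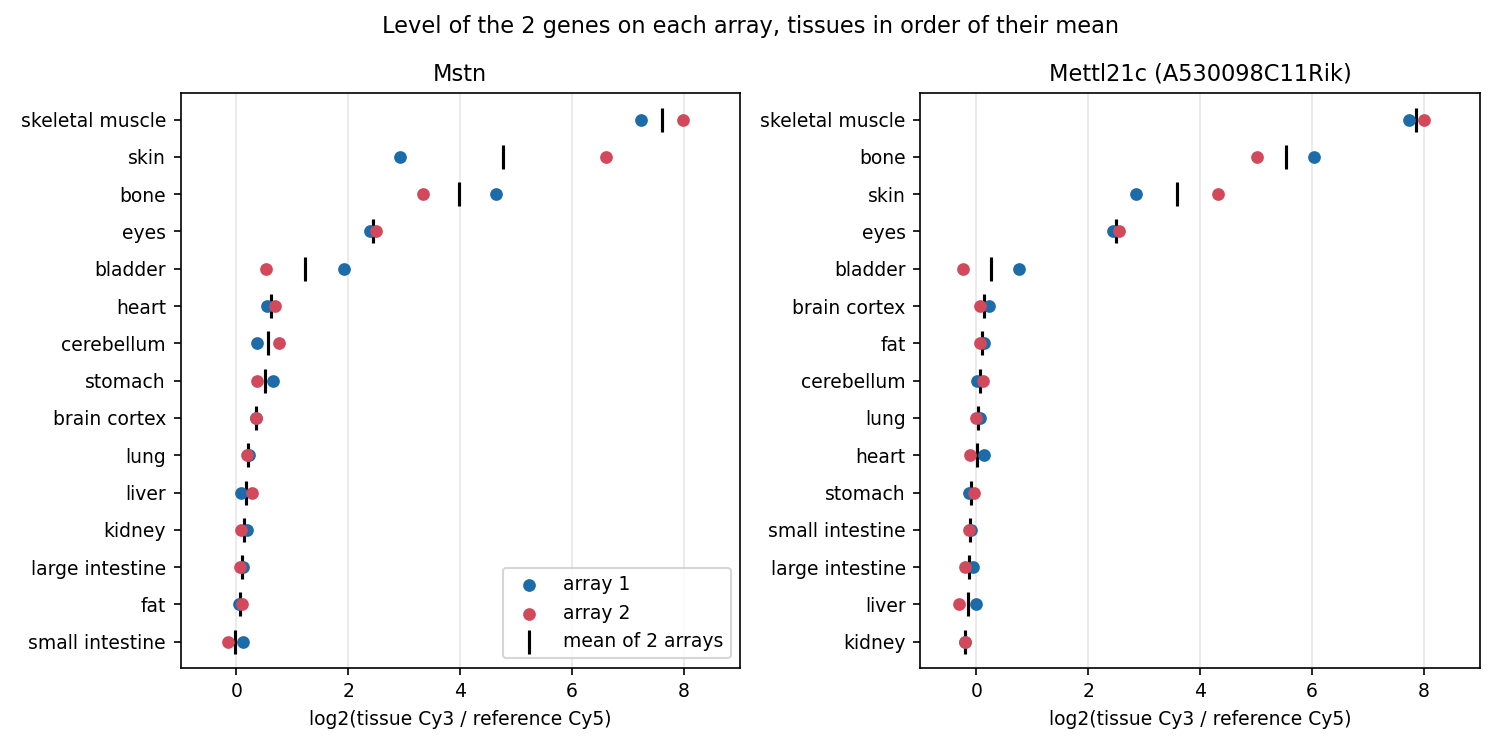
Level of Mstn (left) and Mettl21c (right) as log2 of tissue Cy3 over reference Cy5 on each of the 2 arrays per tissue (points) with their mean (bar), tissues ordered by mean. Muscle, skin, bone and eyes have the highest means for both genes, bladder array 1 comes near eyes for Mstn at 1.93, and the Mstn points of skin, 2.92 and 6.62, enclose those of bone.

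The scanner signals behind these ratios show what each dye contributed. For Mstn the Cy3 signal in scanner units was 5371 and 6677 in muscle, 734 and 1473 in bone, 318 and 2496 in skin, 195 and 217 in eyes, and 200 and 83.9 in bladder. For Mettl21c it was 21385 and 18612 in muscle, 2268 and 4475 in bone, 299 and 763 in skin, 300 and 350 in eyes, and 179 and 74.3 in bladder. Muscle was the brightest tissue for both genes, and no spot was saturated. Bladder array 1 lay between the eyes arrays for Mstn in Cy3. Skin enclosed bone for Mstn in Cy3 as well, while for Mettl21c both bone arrays were brighter than both skin arrays and skin array 1 was level with eyes. The reference held little of either transcript. Its Cy5 spot was well above background on 2 of 30 arrays for Mstn and on 10 of 30 for Mettl21c.

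The Cy5 signal was not even over the arrays. For Mettl21c it was 247 and 228 on the muscle arrays, against a median of 78.5 over all arrays, although the reference was the same RNA throughout. It was also high on heart array 1, at 227, and on bladder array 1, at 165. For Mstn the muscle arrays had 85.8 and 90.9, against a median of 67.3, and the highest Cy5 signal, 262, was on kidney array 1. The part of these Cy5 signals in the levels was not tested.

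**Figure D2:**
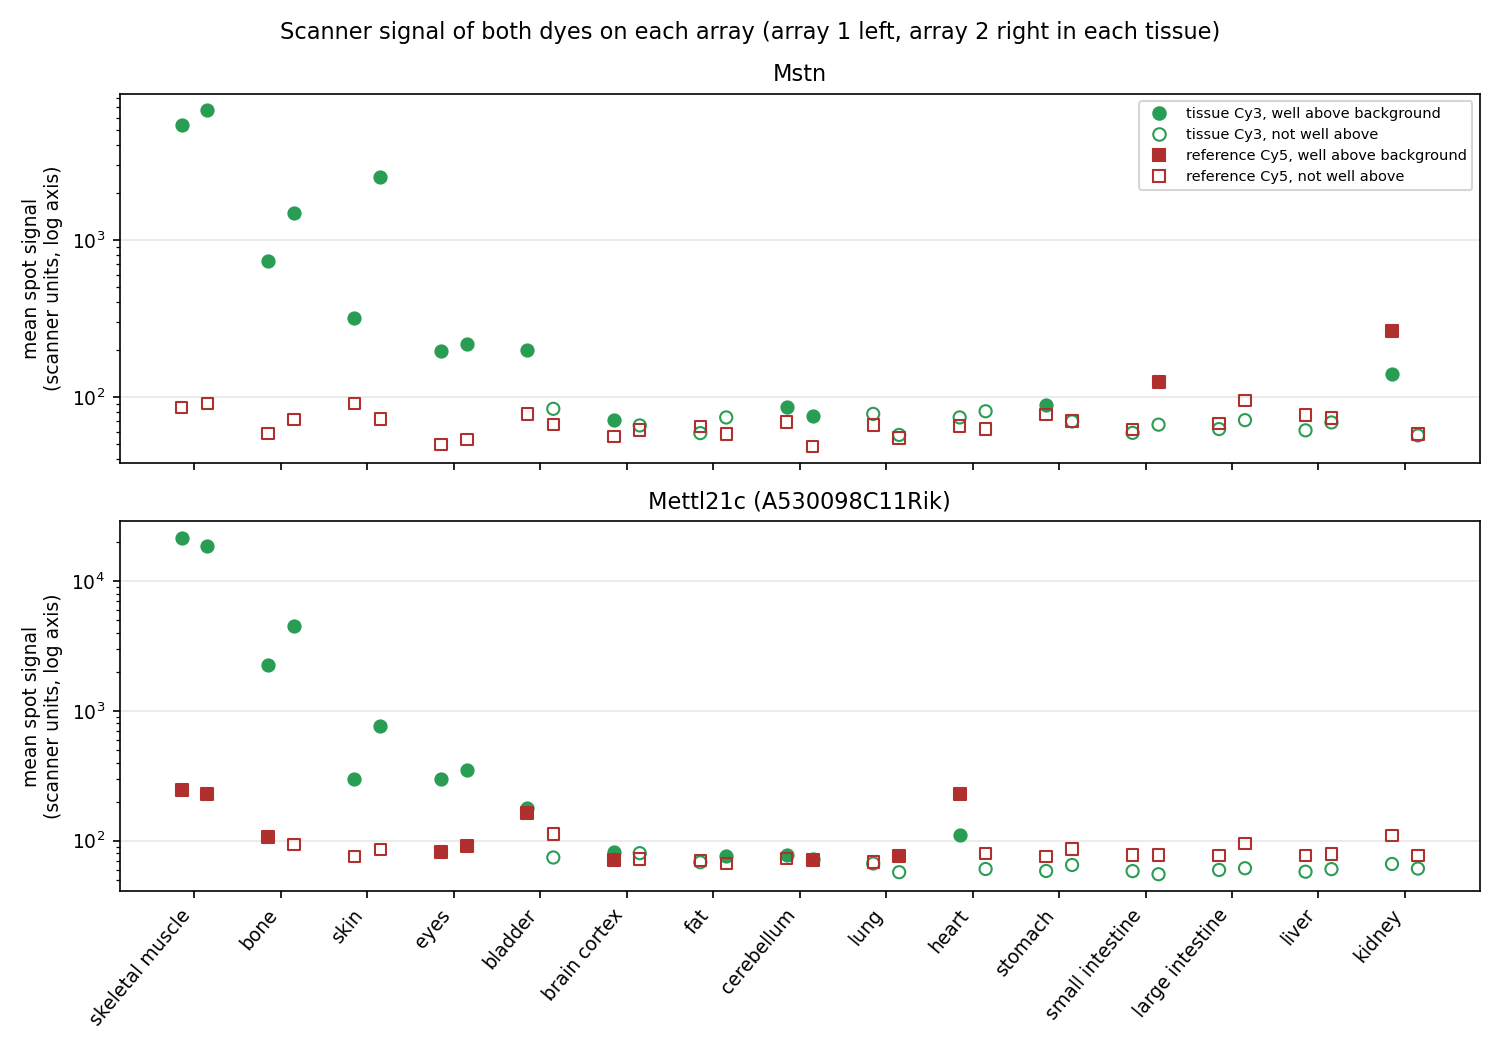
Mean spot signal in scanner units on a log axis for Mstn (top) and Mettl21c (bottom), with tissue Cy3 as circles and reference Cy5 as squares, filled where the spot was well above background, array 1 left and array 2 right. The Cy3 signal is highest in muscle for both genes, and the Cy5 squares of Mettl21c on the muscle arrays, 247 and 228, lie above those of every other array.

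The distance from muscle to bone depended on how the signals were turned into ratios. With background correction and loess, muscle stood 5.06-fold above bone for Mettl21c, a log2 difference of 2.34. With the scanner's own processed signals, and with the authors' value table, the difference was 0.24, or 1.18-fold. Without background correction it was 1.14, and from Cy3 alone 1.85. For Mstn the same distance was 3.62, or 12.3-fold, and it ranged down to 1.44 with processed signals, with 2.18 without background correction, 1.88 from Cy3 alone and 1.84 in the authors' table. Muscle over skin was 7.14-fold for Mstn, a log2 difference of 2.84 that was 0.99 without skin array 1 and 4.68 without skin array 2. For Mettl21c it was 19.5-fold, with a log2 difference of 3.55 without skin array 1 and 5.02 without skin array 2. The Mettl21c gap to skin, 4.29 on the log2 scale, fell to 2.11 with processed signals and 2.55 in the authors' table. Muscle had the higher mean in every one of these settings, but the arrays overlapped in some. With processed signals Mettl21c was 8.85 on bone array 2, above the 8.37 and 8.61 of muscle, and in the authors' table it was 14.07 there against 13.60 and 13.83. Between bone and skin, the Mstn mean was higher in skin by 0.78 with loess and by 1.03 with median centring, and higher in bone in the other 4 settings.

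**Figure D3:**
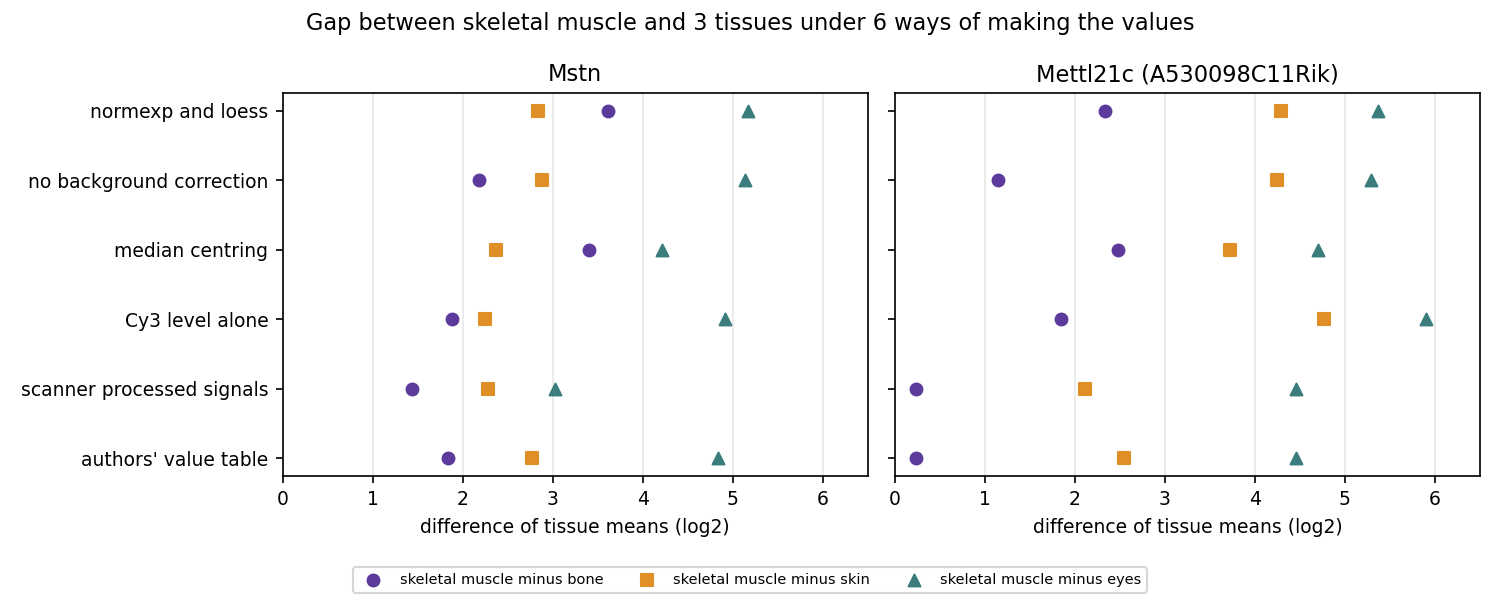
Difference of tissue means on the log2 scale between skeletal muscle and bone (circles), skin (squares) and eyes (triangles) for Mstn (left) and Mettl21c (right), under 6 ways of making the values. Every gap is above 0, and the Mettl21c gap between muscle and bone narrows from 2.34 with loess to 0.24 with processed signals or the authors' table.

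The 2 genes were tested among the 14 tissues other than muscle with contrasts that give muscle no weight. The muscle arrays still entered the estimate of the spread. Heart took part in the choice of the genes, so the tests were also run without it, an alternative chosen after seeing the data. The moderated F-test of limma gave F = 9.20 for Mstn (adjusted p = 3.26e-05) and F = 46.7 for Mettl21c (adjusted p = 3.11e-10). Most probes passed that test, 90% of those tested, so passing it sets neither gene apart. Without heart, over 13 tissues, it gave F = 9.90 for Mstn (adjusted p = 2.42e-05) and F = 49.7 for Mettl21c (adjusted p = 2.45e-10). The paper states that the 2 replicates came from different animals, without exception, while the series description gives bone and fat a single replication. It is thus not settled whether the 2 bone arrays share an animal, and their spread may be technical. They were run on different slides and scanned on different days.

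Bone was higher than the mean of the other 13 tissues for both genes. The difference was 3.13 for Mstn (SE 0.53, limma adjusted p = 0.000111) and 5.07 for Mettl21c (SE 0.27, limma adjusted p = 1.29e-10). Over 12 alternatives it ran from 2.19 to 6.44 for Mstn and from 3.83 to 7.43 for Mettl21c. At the same call, an adjusted p under 0.05 and a difference of at least 2 on the log2 scale, 3.29% of all probes were higher in bone. Skin was higher too, by 3.97 for Mstn (SE 0.53, limma adjusted p = 9.09e-06) and by 2.97 for Mettl21c (SE 0.27, limma adjusted p = 7.68e-08), and 3.65% of all probes were called there. Without heart, against 12 tissues, bone was higher by 3.11 for Mstn (limma adjusted p = 0.000113) and 5.03 for Mettl21c (limma adjusted p = 1.27e-10), and skin by 3.96 (limma adjusted p = 9.42e-06) and 2.92 (limma adjusted p = 9.23e-08). For each gene the fit took the spread as equal in all tissues. For Mstn the SD was 2.61 in skin, 0.99 in bladder, 0.92 in bone and 0.01 in brain cortex. The SE of 0.53 is thus not the spread of the skin arrays themselves, and the adjusted p of Mstn in skin may be too small. The skin value of Mstn leaned on array 2, without which the difference was 2.13 and without array 1 it was 5.82. With slide as a fixed block it could be set only against 5 tissues on linked slides, and there the Mstn difference of skin was 3.19 (limma adjusted p = 0.0898), which missed the threshold.

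Slides that held bone or skin beside another tissue allow a comparison within the slide, but with spots mostly at background on the other side. Bone array 1 had a Cy3 signal of 734 for Mstn and 2268 for Mettl21c, against 71.0 and 61.4 on the large intestine array of its slide. Bone array 2 had 1473 and 4475, against 73.9 and 75.7 on the fat array of its slide. The 2 skin arrays had 318 and 2496 for Mstn and 299 and 763 for Mettl21c, against 59.0 and 58.4 on the small intestine array of theirs. Of these 6 comparison spots 5 were not well above background, all but that of Mettl21c in fat. The log2 ratio differences within slides, 4.57 and 6.24 for bone array 1, 3.24 and 4.97 for bone array 2, and 4.66 and 3.67 for skin, for Mstn and Mettl21c in turn, are therefore not exact sizes.

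Eyes exceeded the other 13 tissues by 1.46 for Mstn (limma adjusted p = 0.0308) and by 1.80 for Mettl21c (limma adjusted p = 2.28e-05). Both differences, from loess values, were under the size set for a call. The eyes mean of Mstn was 2.44 with loess but 6.98 with processed signals, and that of Mettl21c 2.50 and 4.03. Both eyes arrays shared 1 slide, and the fit took arrays of a slide as independent. Over the probes tested the correlation within slides was estimated at 0.69, so these p-values may be too small. The Mstn difference of eyes passed only with both eyes arrays, since the limma adjusted p was 0.142 without array 1 and 0.188 without array 2. Without heart these were 1.43 (limma adjusted p = 0.0347) and 1.74 (limma adjusted p = 3.36e-05). Bladder did not pass for either gene, at 0.16 for Mstn (limma adjusted p = 0.85) and -0.61 for Mettl21c (limma adjusted p = 0.0893). In the other tissues apart from heart, where its Cy3 spots were mostly at background, Mettl21c differed by -1.10 to -0.74, with limma adjusted p from 0.00257 to 0.0312 and no difference of the size of a call. Among the negative differences of Mstn the lowest limma adjusted p was 0.0778.

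Other transcripts of the striated muscle fibre were also high in bone, skin and eyes. Of 40 listed skeletal muscle markers 15 had a probe and 14 were tested. In muscle 12 of the 14 were higher than the other 14 tissues by at least 2 on the log2 scale, against 3.52% of all probes. In bone 8 of 14 were called higher (3.29% of all probes), which became 13 without background correction and in the authors' table and 12 without bone array 2, in skin 8 of 14 (3.65%) and in eyes 7 of 14 (5.35%). The median difference over the 14 was 3.18 in muscle, 3.05 in bone, 2.87 in skin and 1.77 in eyes. Over all probes these medians lay between -0.14 and -0.06.

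The mean level of the 14 markers was 3.78 and 4.13 on the muscle arrays, 3.78 and 3.25 in bone, 2.34 and 3.49 in skin, 1.75 and 1.70 in eyes and 1.66 and 1.74 in heart. It lay between -0.60 and 0.71 on the 20 arrays of the other 10 tissues. Muscle, bone and skin led this order as they led that of Mettl21c, and eyes and heart overlapped. Actn3, the alpha-actinin of fast fibres, was 4.87 and 4.92 in muscle, 5.52 and 5.46 in bone, and -2.90 and -2.76 in heart. Actn2, which heart uses as well, was 4.18 and 4.24 in muscle and 4.82 and 4.93 in heart.

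How far the 2 genes lay below muscle, set against the markers, depended on how the values were made. With loess values the median marker changed by 0.07 on the log2 scale from muscle to bone, with 7 of 14 markers as high or higher in bone, whereas Mstn differed by 3.62 and Mettl21c by 2.34. With median centring that median was 0.74, with 1 of 14 as high or higher, and from Cy3 alone 1.07, with 2 of 14. With loess no marker had a wider gap to bone than Mstn, and 1 had a wider gap than Mettl21c. Over the 6 ways of making the values, a comparison added after seeing the data, 0 to 3 of 14 markers had a wider gap to bone than Mstn and 0 to 6 a wider one than Mettl21c. From muscle to skin the median marker differed by 0.91 with loess, with 1 of 14 wider than Mstn and 0 wider than Mettl21c. From Cy3 alone the median marker gap to skin was 2.48, and 8 of 14 were wider than the 2.25 of Mstn. To eyes the median gap was 2.13 with loess, and no marker had a gap as wide as the 5.17 of Mstn or the 5.37 of Mettl21c, whereas from Cy3 alone 6 of 14 were wider than Mstn and 3 wider than Mettl21c. Both genes were picked for being high in muscle, so a wide gap was built into the choice. In whole tissue, fewer muscle fibres and less RNA per fibre cannot be told apart, and the part of muscle fibres in the bone, skin and eye levels was not tested.

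**Figure D4:**
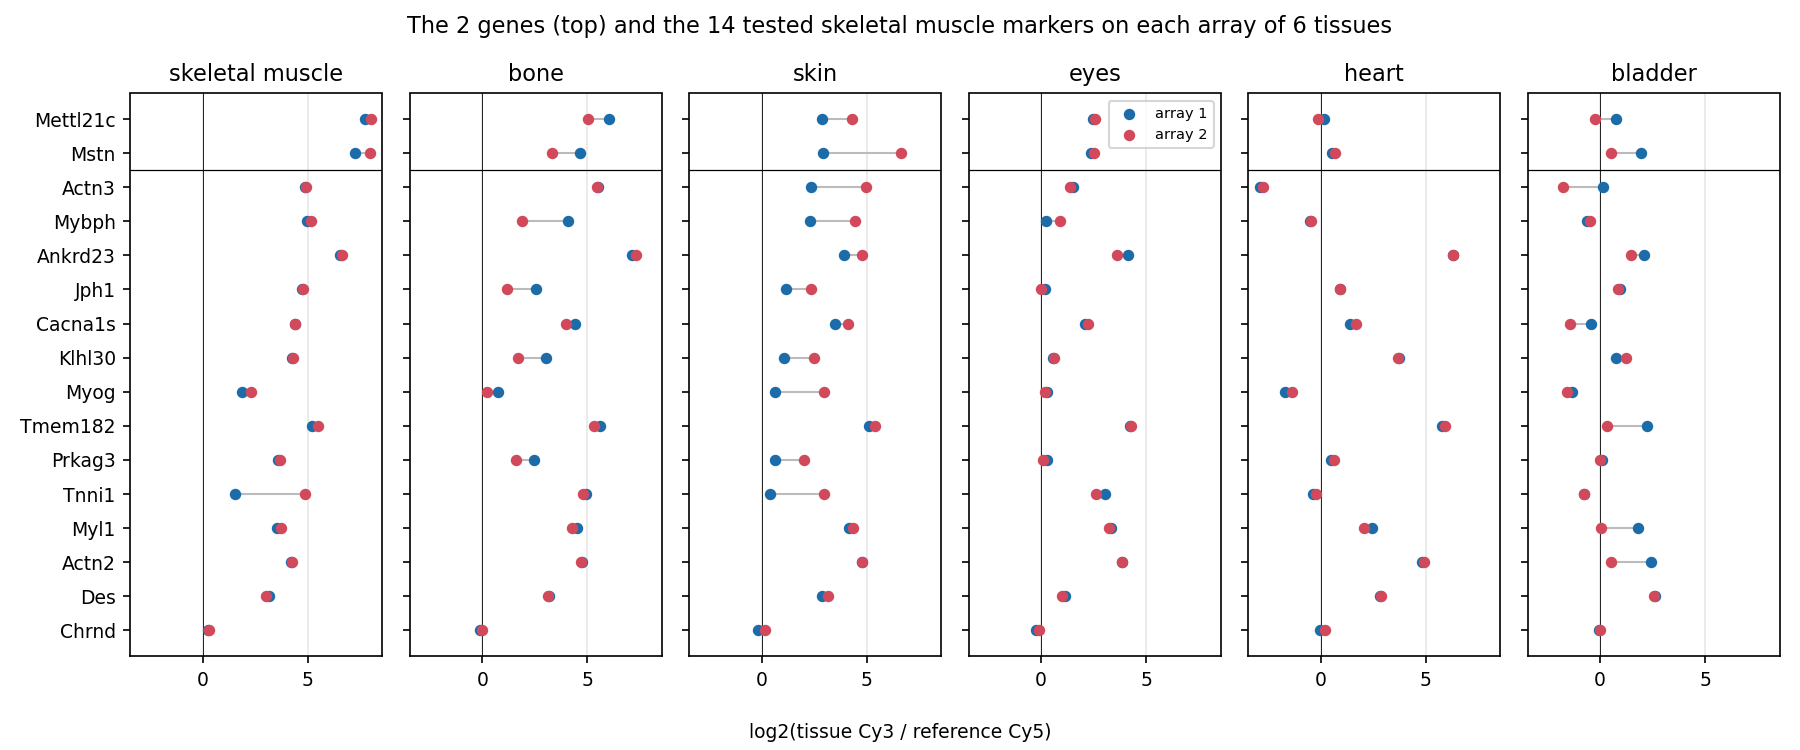
Level of Mettl21c, Mstn and the 14 tested skeletal muscle markers as log2 of tissue Cy3 over reference Cy5 on array 1 (blue) and array 2 (red) in 6 tissues, with a line joining the arrays. In skin every marker is higher on array 2, as are both genes, and in heart Actn2, Ankrd23 and Tmem182 are high.

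In skin and bladder the 2 arrays differed for the pair and for several markers in the same direction. On skin array 2, Mstn was higher than on array 1 by 3.69 and Mettl21c by 1.47. All 14 markers were higher on skin array 2 (48.6% of all probes), 7 of them by at least 1 on the log2 scale (1.81% of all probes). Actn3 was 2.33 on array 1 and 4.98 on array 2, Mybph, a myosin-binding protein, 2.32 and 4.42, and Myog, the transcription factor myogenin, 0.62 and 2.94. Actn2 was 4.78 and 4.79, so the shift was uneven over the list. Krt10, a keratin of the epidermis and the one of 4 skin markers with a probe, was 5.54 and 5.34 and was highest in skin.

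Bladder showed the opposite order. Mstn was lower on bladder array 2 by 1.40 and Mettl21c by 0.99, and 5 of the 14 markers were lower there by at least 1, against 1.14% of all probes. Myl1, a myosin light chain, went from 1.80 to 0.03 and Tmem182 from 2.24 to 0.31. In bone the ratio fell from array 1 to array 2 by 1.31 for Mstn and 1.01 for Mettl21c, and 2 of 14 markers were higher on array 2, against 46.7% of all probes. From Cy3 alone the bone order of the pair turned, with array 2 higher by 0.90 for Mstn and 0.76 for Mettl21c, and 5 of 14 markers higher, against 50.1% of all probes. The order of the skin and bladder arrays was the same on both scales. In stomach and fat the Cy3 spots of the pair were mostly at background, so whether the pair went with the markers cannot be read there. On stomach array 2, 13 of 14 markers were lower and 1 higher than on array 1, against 45.3% of all probes higher. Of the 13, 5 were lower by at least 1 (0.542% of all probes), while Mstn differed by -0.29 and Mettl21c by 0.09. On fat array 2, 11 of 14 markers were higher (51.4% of all probes), 2 of them by at least 1 (6.94%), and 1 was lower by at least 1 (13.2%). In fat Mstn differed by 0.05 and Mettl21c by -0.07, and from Cy3 alone by 0.46 and 0.29. With processed signals Mstn went from -0.06 to 2.67 in fat and from 2.92 to 1.63 in stomach. Mettl21c then went from 1.40 to 2.27 and from -0.79 to -0.05. On the muscle arrays Mstn differed by 0.76 and Mettl21c by 0.27, while Tnni1, the troponin I of slow fibres, was 1.54 on array 1 and 4.86 on array 2.

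Markers of other cell types had fewer probes. The 5 fibroblast markers were all tested. In skin 2 of them were called higher (3.65% of all probes), Col3a1 by 3.84 and Dpt by 2.36, and in bone 1 of them (3.29% of all probes), Col3a1 by 2.62. Its bone arrays were -0.62 and 2.19, and without array 2 the difference was 1.22, no longer of the size of a call. Without bone array 1, 3 of the 5 were called, Col3a1 by 4.03, Col5a2 by 2.14 and Col6a3 by 2.79. Both heart markers with a probe, Tnnt2 and Fhl2, were called higher in heart (3.24% of all probes), and differed by -0.40 and -3.06 in muscle. The smooth muscle, fat, and bone and marrow lists had no named probe, so the bone label could not be set against its own markers.

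The profiles of the 2 genes over the 15 tissue means were alike, with r = 0.97. Each was 6 in rank for the other among all probes tested, and 3 in rank among those with a symbol. Without muscle r was 0.94, and over the 12 tissues left without muscle, bone and skin it was 0.92. These points share the reference and the arrays, and both genes were chosen for muscle, so r is a description. The named probe most like Mstn was Mybph (r = 0.98), which was 5.05 in muscle, 2.97 in bone and 3.37 in skin. The one most like Mettl21c was 2310065F04Rik (r = 0.97), at 5.87 in muscle, 2.69 in bone and 1.83 in skin.

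Several other transcripts stood close to both. Actn3 had r = 0.92 with Mstn and 0.94 with Mettl21c, and Myog had 0.94 and 0.91. The uncharacterised clones 2310015K22Rik and 5730409N16Rik had 0.98 and 0.97 with Mstn. Myoz3, a protein of the Z-disc listed as 4833419K08Rik, had 0.91 with Mettl21c. In all, 51 probes reached 0.9 with Mstn and 55 with Mettl21c, and 13 of each had a symbol.

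Of 42 listed genes of the myostatin and activin pathway 11 had a probe, Mstn among them, and the other 10 were all tested. In muscle 3 of the 10 were higher than the mean of the other 14 tissues by at least 1 on the log2 scale (10.6% of all probes) and 1 was lower (15.9% of all probes). All 3 were receptors. Acvr2a, a type II activin receptor that binds myostatin, was 2.95 and 2.03 in muscle, a difference of 1.58 (SE 0.22, limma adjusted p = 8.56e-06). Acvr2b, the other type II receptor of myostatin, was 0.94 and 0.80, a difference of 1.34 (SE 0.20, limma adjusted p = 1.42e-05). Both had their highest mean in muscle, as had 3 of the 10 in all (9.8% of all probes). Bmpr2, a type II receptor of bone morphogenetic proteins, differed by 1.47 (SE 0.12, limma adjusted p = 1.24e-08) and was highest in lung.

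Among the type I receptors, Acvr1 differed by 0.78 and Acvr1b by 0.62, both under the size set for a call. Acvr1b, which passes on the myostatin signal, was 1.25 lower in bone than in the other 13 tissues (limma adjusted p = 2.66e-06). Of the ligand subunits, Inhbb, from which activin B is made, was lower in muscle by 1.09 (SE 0.19, limma adjusted p = 9.98e-05). In skin Inhbb was higher by 1.36 (limma adjusted p = 1.71e-05). Inha, the alpha subunit of inhibin, differed by 0.25 in muscle (limma adjusted p = 0.403). Ltbp3, which carries latent TGF-beta ligands, differed by 0.39. The median over the 10 genes was 0.51 in muscle, against -0.14 over all probes. Inhbb was not called lower when muscle array 2 was left out, from Cy3 alone, or with slide as a random block. Without muscle array 2 its difference was -0.99, just under the size set for a call.

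Of 13 listed genes of the METTL21 family and its relatives 8 had a probe, Mettl21c among them, and the other 7 were all tested. In muscle 2 of the 7 passed a difference of 1, against 10.6% of all probes. Mettl23 was 2.35 and 2.49 in muscle and differed by 1.56 (SE 0.16, limma adjusted p = 1.68e-07), and it was 2.02 on average in heart. Mettl18, a histidine methyltransferase, differed by 1.07 (SE 0.15, limma adjusted p = 8.59e-06). Mettl21a, which modifies heat shock proteins of the Hsp70 family, differed by 0.60. Mettl21e, another lysine methyltransferase of the family, was 0.55 and 0.61 in muscle and differed by 0.49, with Cy3 well above background on 6 arrays. Mettl21e, Mettl21a, Mettl23 and Mettl18, 4 of the 7, had their highest mean in muscle, against 9.8% of all probes. Etfbkmt was highest in liver, Eef2kmt in kidney, and Camkmt in stomach, with a difference of -0.64 in muscle (limma adjusted p = 0.0121).

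**Figure D5:**
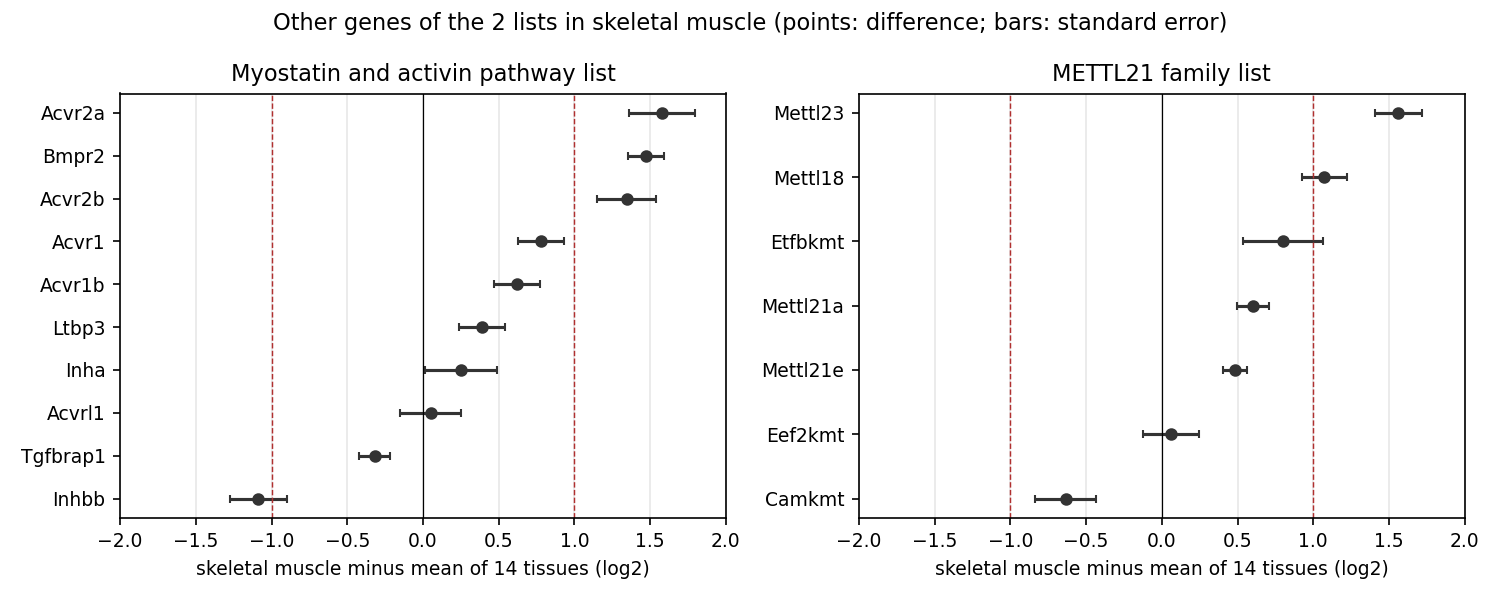
Difference between skeletal muscle and the mean of the other 14 tissues on the log2 scale for the pathway list without Mstn (left) and the METTL21 list without Mettl21c (right), with the standard error as bars and dashed lines at the size set for a call. Acvr2a, Bmpr2 and Acvr2b lie above 1 on the left, Mettl23 and Mettl18 on the right, and Inhbb lies below -1.

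The genes beside the pair on the chromosome were taken from the study's own list of named probes, which follows the genome. Of the 6 genes nearest to Mstn in that list 5 were tested, and all 6 of those nearest to Mettl21c. None of these 11 was higher in muscle by 1 or more on the log2 scale, against 10.6% of all probes. The closest was Tpp2, a peptidase gene beside Mettl21c, at 0.92. The gene just before Mstn, 1700019D03Rik, was lower by 1.11 in muscle (limma adjusted p = 0.00394, and 0.0632 without muscle array 1). Ecrg4, 3 places before Mettl21c, was higher in bone by 2.69 (limma adjusted p = 0.000608) and in eyes by 2.21 (limma adjusted p = 0.00267). Its bone arrays were 2.60 and 5.58, and without array 2 the bone difference was 1.19 (limma adjusted p = 0.125).

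Over the 30 arrays the median Cy3 signal ran from 85.7 to 175 scanner units, and 53.9% to 76.9% of probes were well above background in Cy3. The 2 arrays of a tissue correlated with r from 0.671 to 0.991 over the probes tested. With 2 arrays per tissue, the number of arrays limits the precision of every mean.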

How the data were processed

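Total RNA of each tissue was labelled with Cy3 and hybridised against a Cy5 reference on 2-colour Agilent arrays. Per the file headers, the deposited intensity values are spot signals of Agilent's Feature Extraction software. The authors' value table holds log10 values of the same arrays, whose centring is not given in the sources used here, and was an alternative only. Mean signals were background-corrected by normexp (offset 50), and log2 ratios were loess-normalized within each array, after 475 spots marked as outliers had been left out. A probe was tested where both arrays of at least 1 tissue had Cy3 well above background, which 21026 of 25030 probes met (84%). All 30 arrays entered 1 limma fit (R 4.3.3, limma 3.58.1) with a coefficient per tissue and Benjamini-Hochberg adjustment. The scripts were tested on simulated data. Calls needed an adjusted p under 0.05 and a log2 difference of at least 2, or 1 for muscle and the pathway lists. Genes named in the text are the pair, the 10 named probes most like each, the listed pathway, family and marker genes (skeletal muscle, heart, smooth muscle, skin, bone and marrow, fat, fibroblast) and the chromosomal neighbours. The pair and the lists were chosen with earlier results of these data known. Symbols came from the study's probe lists, which name 5971 probes, and were updated through RefSeq. Alternatives were other background corrections, normalizations, filters, blocks and weights, and leaving out each array.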

Additional observations from a re-analysis of the deposited data

How the results depend on the processing

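Both genes kept their calls in bone and skin under the 12 alternatives run on all arrays and whenever 1 array was left out. Over those 12 the bone difference ran from 2.19 to 6.44 for Mstn and from 3.83 to 7.43 for Mettl21c, and the skin difference from 3.30 to 5.53 and from 2.27 to 5.40. Each gene was called higher in 2 tissues, and in 3 with processed signals and in the authors' table. With slide or scan day as a fixed block, only bone and skin against 5 linked tissues could be fitted, a choice made after seeing the data, and the Mstn difference of skin missed the threshold there with slide (3.19, limma adjusted p = 0.0898). Replicate numbers did not pair the arrays (median r of deviations 0.048 over 105 pairs of tissues), and with the replicate block 19057 probes passed the F-test against 18928 without it.

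The counts over all probes moved more. Probes higher in bone numbered 692, against 1442 with processed signals, 376 with median centring and 1406 in the authors' table, and those higher in skin 767, against 1230, 434 and 1182. With all probes of the array, 30571 passed the F-test. The muscle markers called higher in bone numbered 13 of 14 without background correction and 13 in the authors' table. The r between the 2 genes was 0.94 with processed signals. The 1 pathway gene lower in muscle, Inhbb, was 0 from Cy3 alone and with slide as a random block. The cause of these moves was not tested. Leaving out each array gave 0 to 1 such genes (0 without muscle array 2). It gave 573 to 956 probes higher in bone and 760 to 811 in skin, 7 to 12 markers called in bone and 7 to 11 in skin, and r from 0.95 to 0.98.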
